A study of Mus musculus with 20 samples.

Results

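Six2 and Cited1 mark the self-renewing nephron progenitor cells (NPCs) of the embryonic kidney. They were followed here as 2 of the 31130 genes measured in 20 libraries. Both rows were found through the identifiers that the deposited tables pair with these symbols, ENSMUSG00000024134 for Six2 and ENSMUSG00000051159 for Cited1. The libraries were made from messenger RNA of primary mouse NPCs, isolated at embryonic day 16.5 and cultured in nephron progenitor expansion medium (NPEM). All cells, controls included, came from Cas9-eGFP animals, were transfected with single guide RNAs together with mCherry mRNA, and were sorted for mCherry, so that the sort marks cells that took up RNA rather than cells with a known edit. CTRL cells received a guide to GFP, β-catenin KO cells a guide to Ctnnb1, α-catenin KO cells a guide to Ctnna1, and QCKO cells guides to Cdh2, Cdh3, Cdh4 and Cdh11. Guides acted for 48 h. The cells then spent 24 h in 1.25 µM (low) or 5 µM CHIR (high), which makes 8 groups. CTRL and β-catenin KO had 3 libraries per CHIR level, and α-catenin KO and QCKO had 2.

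In the developing kidney, NPCs surround the tips of the ureteric bud and either renew themselves or respond to Wnt signals from the bud by forming nephrons. Six2 is a homeodomain transcription factor that holds NPCs in the progenitor state, and its loss in the mouse leads to early differentiation of the whole pool. Cited1 is a transcriptional co-regulator without a DNA-binding domain of its own, and it marks the progenitors that have not yet been committed by Wnt signals. CHIR99021 (CHIR) inhibits the kinase GSK3β, which lets β-catenin accumulate and act with LEF/TCF factors in the nucleus. β-Catenin also links cadherins to α-catenin at cell contacts, and so the guides were aimed at both roles (β-catenin KO) or at adhesion alone (α-catenin KO and QCKO).

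The start regions of the 2 genes are shown because both fell together when CHIR was raised. In RefSeq's annotation of GRCm38.p6, Six2 lies on chromosome 17 from 85662736 to 85688254, and Cited1 lies on the X chromosome from 102247378 to 102252181. Both are annotated on the minus strand. The 250 bases before the annotated start are given 5′ to 3′ on the strand of the gene, with capitals marking the motif matches described next, at chr17:85688255-85688504 for Six2 and chrX:102252182-102252431 for the outermost of the 3 Cited1 starts in the table.
Six2: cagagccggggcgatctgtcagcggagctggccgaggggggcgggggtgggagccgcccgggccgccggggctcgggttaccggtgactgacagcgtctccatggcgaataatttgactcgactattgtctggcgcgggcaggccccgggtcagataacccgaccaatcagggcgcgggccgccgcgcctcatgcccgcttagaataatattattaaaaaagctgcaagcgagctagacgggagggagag
Cited1: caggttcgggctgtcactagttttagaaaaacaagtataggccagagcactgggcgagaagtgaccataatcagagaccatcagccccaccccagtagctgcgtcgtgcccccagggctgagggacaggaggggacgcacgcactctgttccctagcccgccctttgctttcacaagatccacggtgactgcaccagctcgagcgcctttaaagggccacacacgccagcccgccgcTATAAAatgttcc
GC content was 64.8% for Six2 and 58% for Cited1, against a median of 52.4% over 32841 promoter windows of the same length. The core letters CTTTGA or CTTTGT of the LEF/TCF motif, searched on both strands, were in 27.6% of all windows and in neither of these. TATAAA, the core of the TATA box, began 13 bases before the outermost Cited1 start and 115 bases before the next one, was absent from the Six2 window, and was in 12.4% of all windows. TGATAC, a form of the motif bound by Six2-type homeodomain factors, was in 4.64% of all windows and in none of the 4 windows of the members.

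Libraries held 18124772 to 28472412 reads, with a median of 21449823. Levels are given as normalized counts, which are reads divided by 1 size factor per library and are not divided by gene length, so that levels are compared between libraries and not between the 2 genes. CTRL high CHIR replicate 2 stood apart with a total of 28329411 normalized counts, where the next highest library had 23674964. Replicate numbers stand for 3 dates given in the sample titles, which do not say what step was done on them. CTRL and β-catenin KO have all 3 dates, α-catenin KO has dates 1 and 3, and QCKO has dates 2 and 3. Nothing in the labels says which animals were used on each date, and p-values measure the spread between these libraries.

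Of 7 genes that define NPCs, Six2, Cited1, Eya1, Osr1 and Wt1 had reads in every group, and Sall1 and Gdnf could not be looked up because the tables pair them with no identifier. The same limit left 6 of 13 ureteric epithelium markers, 2 of 10 stromal, 1 of 8 endothelial and 1 of 8 leukocyte markers. The targeted gene could be checked for 5 of 6 guides, Ctnnb1 being the one without an identifier. Ctnna1 had 3564 to 3790 normalized counts in the 4 α-catenin KO libraries and 5817 to 10082 in the 6 CTRL libraries, so the groups did not overlap. In QCKO, Cdh11 was below every CTRL library of the same CHIR level (1818 and 2519 against 3594 to 5112 in low CHIR, 589 and 1005 against 1883 to 2092 in high CHIR). It was not called lower at either level, and in high CHIR 13.3% of genes lay below CTRL in QCKO. Cdh2, Cdh3 and Cdh4 in QCKO overlapped CTRL at both CHIR levels, and edits do not have to lower the amount of a transcript.

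Six2 was high in every low CHIR library and collapsed in high CHIR in CTRL cells. It had 1540, 1642 and 943 normalized counts in the 3 CTRL low CHIR libraries (1375 ± 377, SD, n = 3) and 69.2, 64.1 and 83.8 in the 3 high CHIR libraries (72.4 ± 10.3). The 2 groups were far apart, and the low CHIR library of date 3 was the lowest of its group. Between libraries of the same date, 4.49%, 3.90% and 8.89% of Six2 was left.

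Cited1 followed the same course. It had 6965, 3987 and 6898 normalized counts in CTRL low CHIR (5950 ± 1700, SD, n = 3). In CTRL high CHIR it had 361, 641 and 355 (452 ± 163). Replicate 2 had the least Cited1 in low CHIR and the most in high CHIR, and it is in high CHIR the library whose total stood apart. In CPM, reads scaled to the library total without the size factor, Cited1 in high CHIR was 15.8, 22.6 and 15.9, so replicate 2 remained the highest. Within a date 5.18%, 16.1% and 5.15% of Cited1 was left.

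**Figure D1:**
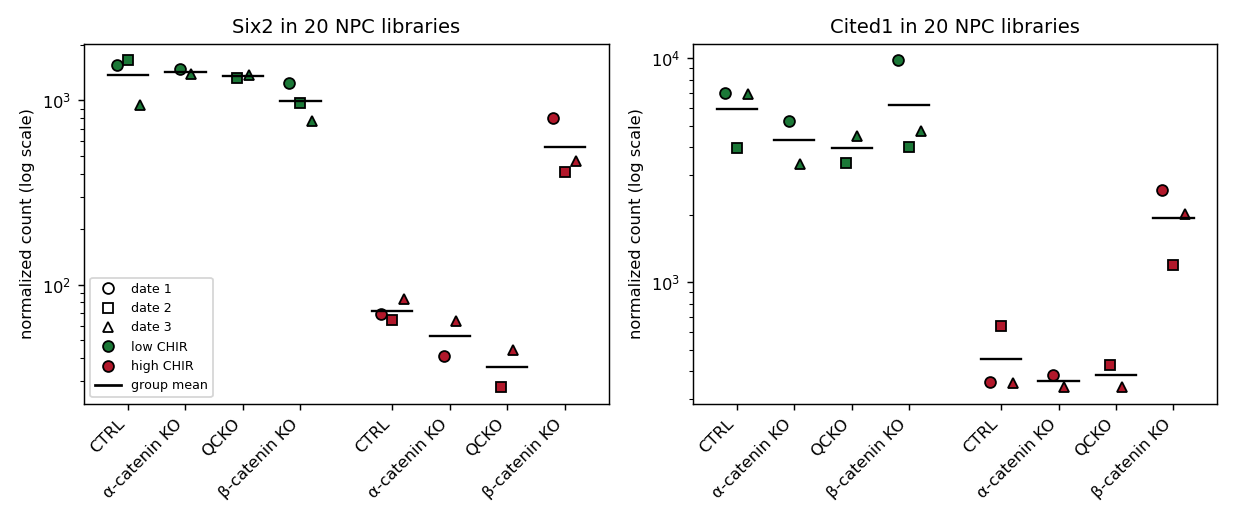
Normalized counts (log axis) of Six2 (left) and Cited1 (right) in each of the 20 NPC libraries, by group, with low CHIR in green, high CHIR in red, the date as the marker shape and the group mean as a bar. In high CHIR both genes sit far below their low CHIR levels in CTRL, α-catenin KO and QCKO, and the 3 β-catenin KO libraries (409 to 798 for Six2, 1188 to 2583 for Cited1) lie above all other high CHIR libraries, a pattern found in 8.34% of the 16691 genes tested.

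The test asked how much each gene changed between low and high CHIR in cells that keep all adhesion and signalling genes. Both were called lower in CTRL, with called meaning an adjusted p under 0.05 in limma (Benjamini-Hochberg over all genes tested) and an absolute log2 change over 0.5, a call that 5.82% of the 16516 genes tested received in that direction. Six2 fell by 4.20 on the log2 scale (SE 0.26, 95% CI −4.77 to −3.63, adjusted p = 1.6e-06), an 18.3-fold drop. Cited1 fell by 3.73 (SE 0.28, CI −4.34 to −3.11, adjusted p = 5.3e-06), a 13.2-fold drop. Ordered by log2 change from the strongest fall, Six2 was number 32 and Cited1 number 74 of the 16516 genes. In bulk RNA, fewer cells that express a gene and less RNA per cell cannot be told apart.

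Markers of other cell types that could be looked up also differed between CHIR levels in CTRL. Their symbols came from tables of genes that differed in some comparison, so they are not a neutral sample. The sum of the 6 ureteric markers ranged from 320 to 1457 normalized counts in CTRL low and from 891 to 1078 in CTRL high CHIR, with 5 of the 6 tested. Gata3 and Hoxb7 were called higher, while Cdh1 (−1.95), Krt8 (−1.21) and Tfap2b (−1.43) were below 0 on the log2 scale and not called. The stromal pair Meis1 and Meis2, of which 2 of 2 were called lower, summed to 3221 to 3819 in low and 1030 to 1511 in high CHIR. The endothelial receptor gene Tek was at 0 in at least 1 CTRL low CHIR library and at most 3.25 in the group, and ranged from 89.7 to 177 in high CHIR. Laptm5, a leukocyte gene, had 26.0 to 52.9 normalized counts in low and 0 to 2.27 in high CHIR. Of all genes tested 4.84% were called higher and 5.82% lower, and of genes with a symbol 18.7% and 23.6%. The part of these markers in the fall of Six2 and Cited1 was not tested.

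The fall of both genes was also seen in α-catenin KO and QCKO. In α-catenin KO, Six2 went from 1468 and 1384 normalized counts in low CHIR to 41.2 and 63.5 in high CHIR. In QCKO it went from 1318 and 1373 to 27.8 and 44.0. Low and high CHIR libraries were again far apart in both knockouts. Six2 fell by 4.77 on the log2 scale in α-catenin KO (SE 0.32, limma adjusted p = 7.0e-06) and fell by 5.23 in QCKO (SE 0.32, adjusted p = 2.8e-06), where 1.99% and 2.31% of genes tested were called lower.

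Cited1 in α-catenin KO had 5229 and 3369 normalized counts under low CHIR, which became 384 and 340 under high CHIR. In QCKO it went from 3408 and 4493 to 426 and 342. The log2 changes were −3.54 (SE 0.35, limma adjusted p = 6.9e-05) and −3.35 (SE 0.35, adjusted p = 9.5e-05). Both members were therefore called lower in both adhesion knockouts.

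In β-catenin KO both genes were again lower in high CHIR on every date, as were 15.5% of the 16691 genes tested, but neither change was called. Six2 had 1236, 970 and 773 normalized counts in low CHIR (993 ± 232, SD, n = 3). High CHIR libraries had 798, 409 and 467 (558 ± 210). The highest high CHIR library lay above the lowest low CHIR library, so the ranges overlapped, and 64.6%, 42.2% and 60.5% was left on the 3 dates. Its log2 change of −0.87 (SE 0.28, 95% CI −1.47 to −0.26) was not called, with a limma adjusted p of 0.81, and its unadjusted p from the same fit was 0.0077. In this comparison 0.018% of genes were called.

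Cited1 in β-catenin KO had 9769, 4020 and 4732 normalized counts in low CHIR (6174 ± 3134, SD, n = 3), while high CHIR libraries had 2583, 1188 and 2012 (1928 ± 701). Here the ranges did not overlap, as in 4.72% of genes in that direction, and 26.4%, 29.6% and 42.5% was left on the 3 dates. The log2 change was −1.64 (SE 0.35, CI −2.39 to −0.88, limma adjusted p = 0.20), and it was not called. With the date as a block in the fit the change was called (adjusted p = 0.043), and DESeq2 on the recovered reads also called it (−1.68, adjusted p = 0.0042). Of the markers of other cell types, limma called none between CHIR levels in this arm. The stromal sum had 2328 to 2967 normalized counts in low CHIR and 1109 to 1654 in high CHIR, without overlap. The ureteric sum, Tek and Laptm5 overlapped between the levels. The part of these markers in the changes of Six2 and Cited1 was not tested.

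**Figure D2:**
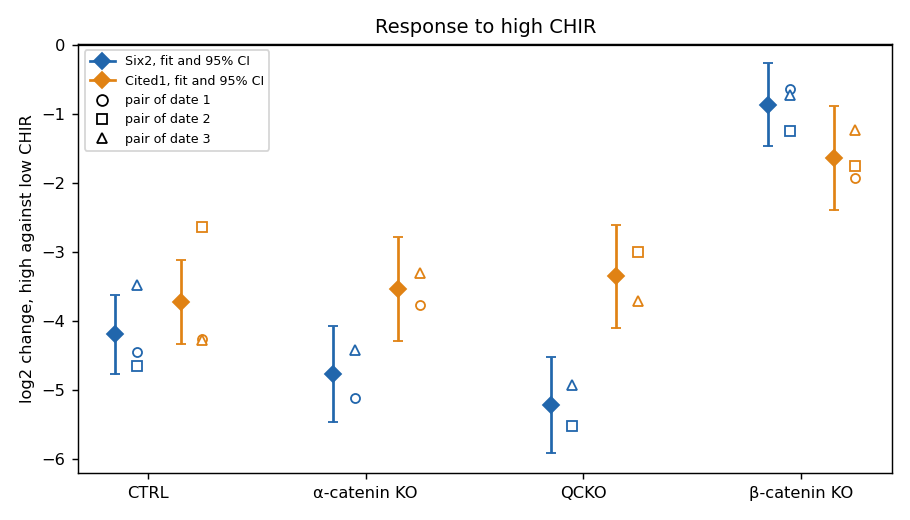
Log2 change between high and low CHIR in each of the 4 arms, for Six2 (blue) and Cited1 (orange). Filled diamonds with bars are the limma estimates with 95% confidence intervals and open markers are the library pairs of 1 date. The estimates lie between −5.23 and −3.35 in CTRL, α-catenin KO and QCKO, and at −0.87 and −1.64 in β-catenin KO.

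Whether β-catenin KO changed the response itself was tested as the difference between its CHIR response and that of CTRL. For Six2 this difference was 3.33 on the log2 scale (SE 0.40, 95% CI 2.48 to 4.18, limma adjusted p = 0.00065), and it was called, as for 0.533% of genes tested in that direction. For Cited1 it was 2.09 (SE 0.50, CI 1.03 to 3.15), in the same direction, and was not called, with an adjusted p of 0.079. It was called with the date as a block (adjusted p = 0.020) and by DESeq2 (2.01, adjusted p = 0.012). It was also called without CTRL high CHIR replicate 2 (2.37, limma adjusted p = 0.048), without β-catenin KO low CHIR replicate 1 (2.48, adjusted p = 0.014) or without β-catenin KO high CHIR replicate 2 (2.40, adjusted p = 0.034).

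Set against CTRL in high CHIR, both genes were called higher in β-catenin KO, as were 7.67% of genes tested. Six2 was 2.88 higher on the log2 scale (SE 0.28, 95% CI 2.27 to 3.48, limma adjusted p = 1.7e-05), or 7.34-fold. On the 3 dates the difference was 3.51, 2.66 and 2.47. The 3 β-catenin KO libraries lay above the 3 CTRL libraries for both genes, which 14.8% of genes did. Cited1 was 2.08 higher (SE 0.35, CI 1.32 to 2.83, adjusted p = 0.0021), or 4.21-fold. By date it was 2.84, 0.89 and 2.50, and the smallest difference was that of date 2, whose CTRL library had the high total.

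None of the tested markers of other cell types was called in this comparison, but Tek and Laptm5 did not overlap CTRL. Tek had 4.62 to 85.3 normalized counts in β-catenin KO high CHIR, below the 89.7 to 177 of CTRL. Laptm5 had 4.43 to 28.9, above the 0 to 2.27 of CTRL, and 14.8% of genes lay above CTRL in this way. The ureteric sum (593 to 1156) and the stromal sum (1109 to 1654) overlapped those of CTRL. Their part in the higher Six2 and Cited1 was not tested.

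The β-catenin KO level in high CHIR did not reach that of CTRL in low CHIR. Its mean was 40.6% of the CTRL low CHIR mean for Six2 and 32.4% for Cited1, and its libraries lay below all 3 CTRL low CHIR libraries for both genes, as in 7.3% of genes. This difference combines a knockout and a CHIR level and was not tested.

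The libraries of β-catenin KO were not alike. Wnt4, the signal that induced NPCs make as they turn into epithelium, had 30.1, 831 and 634 normalized counts in the 3 β-catenin KO low CHIR libraries, and 41.1 to 72.6 in CTRL low CHIR. In high CHIR it had 252, 2387 and 1200, with 4156 to 5401 in CTRL. The β-catenin target Axin2 had 560 and 384 in low CHIR replicates 2 and 3, where CTRL had 39.3 to 71.5 and β-catenin KO replicate 1 lay below that. In high CHIR the 3 libraries had 18.5, 743 and 687, where CTRL had 357 to 435. Lef1, which encodes a partner of β-catenin, had 62.3, 660 and 532 in low CHIR (62.5 to 72.6 in CTRL) and 93.6, 677 and 1020 in high CHIR (948 to 1465 in CTRL). Replicates 2 and 3 of β-catenin KO thus had more Axin2 than every CTRL library of their CHIR level, and Ctnnb1 itself could not be checked. Replicate 1, lowest for Wnt4, Axin2 and Lef1 at both CHIR levels, had the most Six2 and the most Cited1 of the 3 at both levels.

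**Figure D3:**
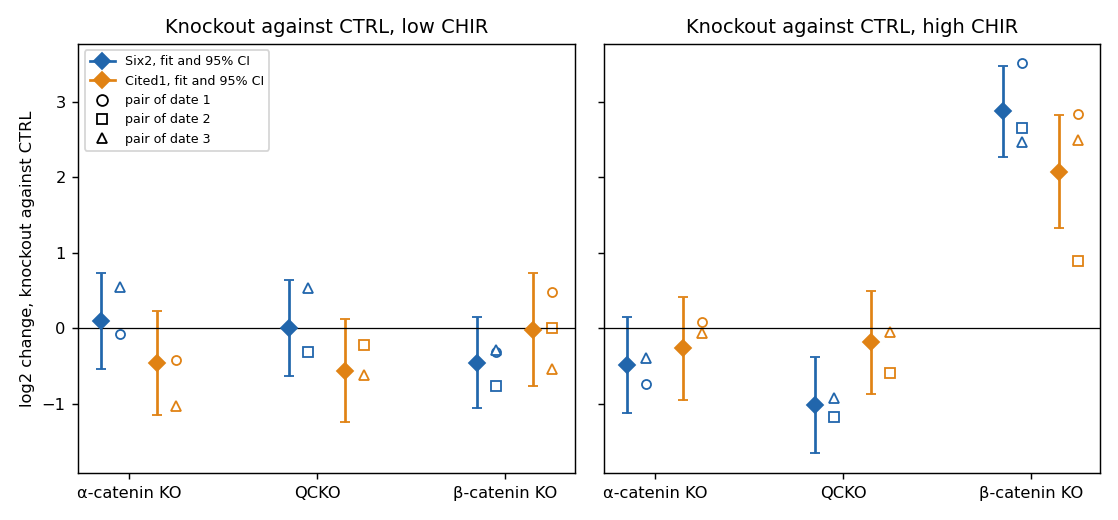
Log2 difference between each knockout and CTRL in low CHIR (left) and high CHIR (right) for Six2 (blue) and Cited1 (orange). Diamonds with bars are limma estimates with 95% confidence intervals and open markers are pairs of 1 date. In high CHIR the β-catenin KO estimates stand at 2.88 and 2.08, and QCKO is the only adhesion knockout whose Six2 interval lies below 0.

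In low CHIR none of the 3 knockouts was called different from CTRL for either gene. In limma, 0.0659% of genes tested were called in β-catenin KO, 0.00605% in QCKO and 0% in α-catenin KO, where 109 genes had an unadjusted p under 0.05. DESeq2 called 1 gene in α-catenin KO and edgeR called 0. Six2 differed from CTRL by 0.093 in α-catenin KO (95% CI −0.54 to 0.73), by 0.0097 in QCKO (−0.63 to 0.65) and by −0.45 in β-catenin KO (−1.06 to 0.15) on the log2 scale. The β-catenin KO libraries had less Six2 than the CTRL library of their date on all 3 dates, as 16.1% of genes did. Cited1 differed by −0.46 in α-catenin KO (−1.14 to 0.23), by −0.56 in QCKO (−1.25 to 0.13) and by −0.015 in β-catenin KO (−0.77 to 0.74). It was below the CTRL library of the same date in 4 of 4 adhesion knockout libraries, a pattern of 9.09% of genes.

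In high CHIR, the adhesion knockouts had the lowest Six2 values of all, but the difference from CTRL was not called. The 4 libraries of the adhesion knockouts, with 27.8 to 63.5 normalized counts, lay below all 3 CTRL libraries, a pattern found in 3.68% of the 16516 genes tested. The gap was narrow, with 63.5 in α-catenin KO replicate 3 and 64.1 in CTRL replicate 2, the library whose total stood apart. In CPM it closed for α-catenin KO (1.74 and 3.05 against 3.03, 2.26 and 3.76 in CTRL), while QCKO stayed below CTRL (1.27 and 2.01). For QCKO alone against CTRL, libraries lay apart in this direction in 13.3% of genes, and for α-catenin KO alone in 6.82%. Six2 in QCKO differed from CTRL by −1.02 on the log2 scale (SE 0.29, 95% CI −1.66 to −0.38, unadjusted p = 0.0043 in the limma fit), and in α-catenin KO by −0.48 (SE 0.29, CI −1.12 to 0.15). The adjusted p were 0.55 and 0.70. Over the alternatives the adjusted p of the QCKO difference ranged from 0.14 to 0.92. In these 2 comparisons limma called 0% of genes, although 1444 genes for QCKO and 928 genes for α-catenin KO had an unadjusted p under 0.05. DESeq2 called 7 and 4 genes, and edgeR called 0 in both.

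These levels rested on few reads. The Six2 value of QCKO replicate 2 came from 23 reads, and its exact Poisson 95% interval ran from 17.6 to 41.7 normalized counts. The CTRL library of the same date had 60 reads and an interval from 48.9 to 82.5. On date 3, QCKO had 44.0 (32.3 to 58.4) and CTRL 83.8 (68.7 to 101) normalized counts, so the intervals stayed apart on both dates. Those of α-catenin KO, 41.2 (28.2 to 58.2) on date 1 and 63.5 (48.8 to 81.3) on date 3, overlapped CTRL at 69.2 (52.9 to 88.9) and 83.8. The intervals cover counting error only, since reads without molecular identifiers are not independent molecules.

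No tested marker of another cell type was called against CTRL in high CHIR in either adhesion knockout, but some had levels outside the CTRL range. In high CHIR the ureteric sum was 891 to 1078 in CTRL, 1289 to 2322 for the α-catenin KO libraries and 1838 to 2121 for the QCKO libraries. Tek had 221 to 357 normalized counts in QCKO, above the CTRL range, and 92.7 to 383 in α-catenin KO, which overlapped it. Laptm5 had 2.41 to 8.42 in QCKO, just above CTRL, and 0 to 39.9 in α-catenin KO, while the stromal sums of QCKO (1239 to 1531) and α-catenin KO (1250 to 1666) overlapped CTRL. Their part in the Six2 values was not tested.

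Cited1 showed no such gap. With 340 to 426 normalized counts in the 4 adhesion knockout libraries it overlapped CTRL (355 to 641), and it differed by −0.27 in α-catenin KO (95% CI −0.95 to 0.42) and by −0.19 in QCKO (CI −0.87 to 0.50). Both differences turned to 0.014 and 0.094 when CTRL high CHIR replicate 2 was left out.

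The response to CHIR in the adhesion knockouts was not called different from that of CTRL for either gene. The differences for Six2 were −0.58 in α-catenin KO (95% CI −1.48 to 0.32) and −1.03 in QCKO (CI −1.93 to −0.13, limma adjusted p = 1.00), and for Cited1 they were 0.19 (CI −0.78 to 1.16) and 0.37 (CI −0.60 to 1.34). No gene was called in either comparison by limma, edgeR or DESeq2, with 258 and 213 genes at an unadjusted p under 0.05 in limma.

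Put in order of the group means, the 4 low CHIR groups came first for both genes, then β-catenin KO high CHIR, then the other high CHIR groups. For Six2, neighbouring groups whose libraries did not overlap were QCKO low and β-catenin KO low CHIR, β-catenin KO high and CTRL high CHIR, and CTRL high and α-catenin KO high CHIR, the last of which overlapped in CPM. For Cited1 there were 2 such steps, between QCKO low and β-catenin KO high CHIR and between β-catenin KO high and CTRL high CHIR. All other neighbours in the 2 orders overlapped. Over all genes tested, β-catenin KO libraries lay above CTRL in high CHIR in 14.8%, and α-catenin KO libraries below CTRL in 6.82%. Shares for the steps that start at QCKO low CHIR were not computed.

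The 2 genes did not change by the same amount within a date. In the 7 date pairs of CTRL, α-catenin KO and QCKO, Six2 fell more than Cited1 in 6, and in the 3 pairs of β-catenin KO Cited1 fell more in 3. The Six2 response minus the Cited1 response was −0.19, −2.02 and 0.80 on the log2 scale in CTRL. It was −1.36 and −1.12 for α-catenin KO, −2.52 and −1.22 for QCKO, and 1.29, 0.51 and 0.51 for β-catenin KO. The β-catenin KO mean of 0.77 ± 0.45 (SD, n = 3) and the CTRL mean of −0.47 ± 1.43 overlapped in their pairs. This measure was added after the levels had been seen, and its differences between arms were not tested.

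**Figure D4:**
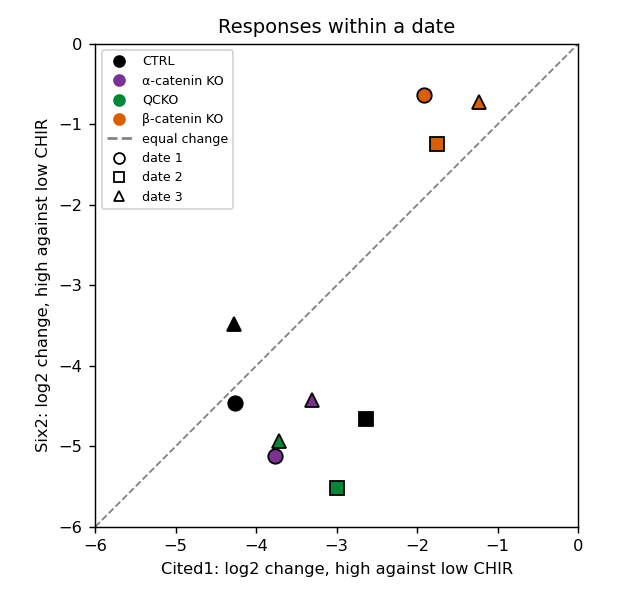
Six2 response against Cited1 response to CHIR (log2 change, high against low) for the 10 pairs of libraries that share an arm and a date. The dashed line marks equal change. The 3 β-catenin KO pairs lie above it at the upper right and 6 of the 7 other pairs lie below it.

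Other genes of the progenitor state moved with Six2 and Cited1. A list of 30 progenitor genes had 18 with an identifier, Six2 and Cited1 among them, and all 18 passed the filter on low values. In CTRL 15 of the 18 were called lower in high CHIR, 2 were called higher and 1 was not called, with a median log2 change of −3.32 against −0.0059 over all genes. Symbols came from tables of genes that differed in some comparison, so the genes that can be looked up are not a neutral sample, and 23.6% of the 3924 tested genes with a symbol were called lower and 18.7% higher, where the shares of all genes were 5.82% and 4.84%. In each adhesion knockout 14 were called lower and 1, Bmp7, was called higher, with medians of −3.47 (α-catenin KO) and −3.51 (QCKO). Of genes with a symbol, 7.95% and 9.2% were called lower there and 9% and 9.45% higher, and of all genes 1.99% and 2.31% lower and 2.4% and 2.62% higher.

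Meox2, a homeobox gene, fell furthest, with a log2 change of −6.39 in CTRL, from 1730 to 3028 normalized counts in low CHIR to 8.54 to 47.6 in high CHIR (limma adjusted p = 7.0e-06). Osr1, a zinc-finger factor of the early kidney mesenchyme, fell by 4.68 (adjusted p = 1.6e-06). The guidance receptor gene Robo2 (−4.16), the polycomb partner Phf19 (−4.11), Tmem100 (−4.00), Crym (−3.76), Traf1 (−3.49) and the forkhead factor Foxc2 (−3.15) fell as well. Eya1 (−2.48), Dpf3 (−2.37), Wt1 (−2.02), Spock2 (−1.43) and Eya4 (−1.14) fell less.

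Bmp7, a secreted factor that acts on NPCs, and the homeobox gene Uncx were the 2 members called higher, by 3.99 and 1.61. Foxc1 was the 1 not called, at −0.95 (limma adjusted p = 0.064).

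In β-catenin KO 0 of the 18 were called between CHIR levels by limma and by edgeR, with a median of −0.44, and 6 had an unadjusted p under 0.05, all lower. Over all 16691 genes 0.018% were called and 741 had such a p. With the date as a block, which called 40 of all genes, 2 were called lower, Cited1 and Robo2 (−1.54, limma adjusted p = 0.0064). DESeq2, which called 57 of all genes, called the same 2 and Traf1 (−1.50, adjusted p = 0.0070). Against CTRL in high CHIR, 15 of the 18 were called higher, where 7.67% of all genes and 20.9% of genes with a symbol were. The median log2 difference of the 18 was 1.95, against 0.016 over all genes. Meox2 (5.42), Osr1 (4.26), Crym (3.91), Foxc2 (3.69) and Tmem100 (3.23) had larger log2 differences from CTRL than Six2 (2.88), and Eya4 (0.81) was the least of the 15. The CHIR response was called different from that of CTRL in 8 of 18, all higher, namely Six2, Osr1, Meox2, Crym, Foxc2, Tmem100, Robo2 and Wt1, and Cited1 was not among them. Over all genes 0.533% were called higher in this test, and over genes with a symbol 2.26%. The comparisons of β-catenin KO with CTRL share the CTRL libraries with those within CTRL.

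**Figure D5:**
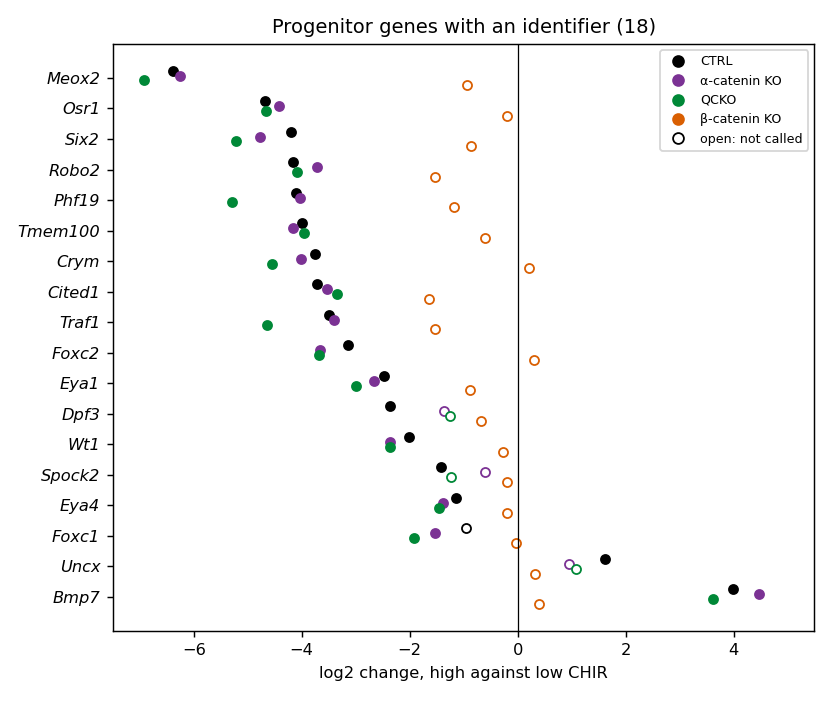
Log2 change between high and low CHIR for the 18 progenitor genes with an identifier, ordered by their change in CTRL, in CTRL (black), α-catenin KO (purple), QCKO (green) and β-catenin KO (orange). Filled points were called and open points were not. Six2 at −4.20 and Cited1 at −3.73 lie among the stronger falls, and all β-catenin KO points are open.

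Of the relatives of the 2 genes, 2 of 7 had an identifier. Cited2, a co-regulator of the same family, was called higher in high CHIR in CTRL, by 1.48 on the log2 scale (limma adjusted p = 0.00033), against the direction of Cited1, and it was also called in QCKO (0.99, adjusted p = 0.027). It was at 0.88 in α-catenin KO (adjusted p = 0.054) and at 0.57 in β-catenin KO, where it was not called. Six5, a homeodomain factor related to Six2, was called lower in CTRL (−1.34, adjusted p = 0.011) and in none of the 3 knockouts, where it was between −0.96 and −0.59. Of 11 binding partners of Six2 and Cited1, the 2 with an identifier were Eya1 and Eya4, phosphatase co-activators that bind Six2. Eya1 went from 3427 to 4783 normalized counts in CTRL low CHIR to 456 to 1153 in high CHIR, and both genes were called lower in CTRL, α-catenin KO and QCKO, where 5.82%, 1.99% and 2.31% of all genes were, and 23.6%, 7.95% and 9.2% of those with a symbol.

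Among FGF and BMP pathway genes, 5 of 21 had an identifier, and in CTRL 3 were called lower and 1 higher. Over all genes 5.82% were called lower and 4.84% higher, and over genes with a symbol 23.6% and 18.7%. Fgf1, a growth factor gene, fell by 6.72 on the log2 scale (limma adjusted p = 1.6e-06), while the FGF feedback inhibitors Spry4 and Spry1 fell by 1.49 and 1.21. Bmp7 was the one called higher, and Id2, a BMP target, was at 0.65 and not called (adjusted p = 0.072).

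Genes of induction rose as the members fell. Of 15, 12 had an identifier, and 11 were called higher and 1 lower in CTRL and in each adhesion knockout. The share of all genes called higher was 4.84% for CTRL, 2.4% for α-catenin KO and 2.62% for QCKO. Among genes with a symbol it was 18.7%, 9% and 9.45%. In β-catenin KO limma called 0 of 12, where 0.018% of all genes were called. Against CTRL in high CHIR, 1 of the 12 was called higher, 1 lower and 10 were not called. Of the 12, 11 were below 0, with a median log2 difference of −1.49 against 0.016 over all genes. Of the 16691 genes tested, 7.67% were called higher and 477 genes were called lower. The response difference from CTRL was called for 0 of 12, with 11 below 0 and a median of −2.25 against 0.034 over all genes. Of the 16691 genes tested, 0.533% were called higher in this test and 23 genes were called lower. In CTRL, Wnt4 rose by 6.33, the Wnt target Sp5 by 5.94, the renal vesicle factor Lhx1 by 4.91 and the Notch ligand Jag1 by 4.12. The one that fell was Bmper, which encodes a BMP-binding protein, at −3.10.

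The genes whose course over the 20 libraries was most like that of each member were found from the root mean square difference of log2 levels, each centred on its own mean. The profile of Six2 was closest to that of Rdh10, a retinol dehydrogenase gene, at 0.48, followed by Phactr1 (0.57), Osr1 (0.57), Tmem100 (0.58) and Fat3 (0.60), among 16690 genes with a median of 2.14. The profile of Cited1 was closest to Tmem100 (0.50), Pygm, the muscle glycogen phosphorylase gene (0.54), Robo2 (0.55), Fat3 (0.55) and Galntl6 (0.58), with a median of 1.76. Tmem100 and Fat3 were in both groups of 5. Cited1 was number 15 in the order for Six2, and Six2 was number 40 in the order for Cited1, with a difference of 0.72 between them. With a pseudocount of 5 the list for Cited1 shared 2 of 5 genes with this one.

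Genes chosen for a small difference from a member over all 20 libraries must resemble it in every arm, and their levels are given only as a description. Rdh10 had 2075 to 2458 normalized counts in CTRL low CHIR, 59.8 to 150.5 in CTRL high CHIR and 1019 to 1677 in β-catenin KO high CHIR. Pygm, near to Cited1, had 971 to 1460, 56.4 to 171 and 278 to 579 in the same 3 groups. In β-catenin KO the log2 change with CHIR was −0.45 for Rdh10 and −1.55 for Pygm, next to −0.87 for Six2 and −1.64 for Cited1, and limma called none of these 4.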

How the data were processed

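The authors isolated NPCs, edited and sorted them, made cDNA with a SMARTer Ultra Low kit and sequenced paired-end reads. The submitters' processing notes name bcl2fastq, STAR, Subread, featureCounts, Salmon and DESeq2, with GRCm38, mm10 and GRCh38, without saying which step used which. The signal values are normalized counts that the authors deposited after dividing reads by 1 size factor per library. Every value was a whole multiple of its library's step (100% of values in each library, tolerance 0.001), which gave reads for the count tests. This says less for replicate 2 of β-catenin KO in low CHIR and replicate 3 of α-catenin KO in high CHIR, with size factors very near 1. The deposited comparison tables hold fold changes and p-values of the authors, which were not used. They supplied 4316 symbols only.

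Log2(normalized count + 1) was fitted with limma 3.58.1 in R 4.3.3 (mean-variance trend, 1 mean per group), after dropping genes whose normalized counts averaged under 10. The fit held 14 libraries without β-catenin KO (16516 genes), or all 20 (16691 genes) for comparisons with it. Fold changes are on this scale and understate those of low genes. Alternatives were edgeR 4.0.16 and DESeq2 1.42.0 on reads, a date block, quantile normalization, pseudocounts 0.25 and 5, no filter or a minimum mean of 100, a log2 change over 1, other library sets and leaving out each library. The script was tested on simulated data. Members and lists were chosen with earlier results of these data known. Named genes were the members, called genes of the progenitor, family and partner lists, the 5 nearest to each member and up to 4 called genes of 2 further lists. Foxc1, the targeted genes and the markers were named after their values were seen.

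Sample titles give a date without naming the step it belongs to, and same-date libraries of an arm deviated together from their group means (r from 0.047 to 0.72 across genes, 10 pairs). For groups of 2, both pairs have the same r by construction.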

Additional observations from a re-analysis of the deposited data

Results flagged for a closer look

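The CHIR response of Six2 differed between β-catenin KO and CTRL by 3.33 on the log2 scale in the limma fit (adjusted p = 0.00065), which is a difference between 2 arms under the same contrast by an interaction term. Six2 fell by 4.20 in CTRL and changed by −0.87 in β-catenin KO, and the difference kept its direction and call in all 22 alternatives run, between 3.04 and 3.58.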

How the results depend on the processing

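Of 446 alternatives over 26 results on the members, 423 kept direction and call, 7 gained a call, 0 lost one and 16 reversed, none of the 16 being a called difference. The gains were all for Cited1 in β-catenin KO. Its CHIR response was −1.64 with the date as a block (called) and −1.68 by DESeq2. Its response difference from CTRL was 2.09 with the block and 2.01 by DESeq2, and 1.84 to 2.48 when 1 library was left out. The block changed no other call of the members. Reversals were of values near 0. Six2 in QCKO against CTRL, low CHIR, was −0.022 with quantile normalization, −0.052 with edgeR and −0.036 with DESeq2, and −0.24 to 0.16 when 1 library was left out. Cited1 in β-catenin KO against CTRL, low CHIR, was 0.056, 0.067 and 0.060, and −0.40 to 0.24. Leaving out 1 library also turned Six2 in α-catenin KO in low CHIR (−0.16 to 0.24), Cited1 in high CHIR in α-catenin KO (−0.41 to 0.014) and QCKO (−0.34 to 0.094), and the Cited1 response difference of α-catenin KO (−0.13 to 0.51). Progenitor genes called lower in β-catenin KO went from 0 to 2 with the block and 3 with DESeq2. Those called higher went from 2 to 1 in CTRL with only the groups compared (1 to 2 with 1 library left out), and from 1 to 0 in α-catenin KO and QCKO with all 20 libraries (0 to 1 with 1 left out). The genes most like Cited1 shared 2 of 5 with a pseudocount of 5. Over all genes, calls between CHIR levels went from 1760 to 761 in CTRL and from 814 to 1855 in QCKO with only the groups compared, from 725 to 1186 (block) and 1095 (DESeq2) in α-catenin KO, from 814 to 1278 (block) and 1229 (DESeq2) in QCKO, and from 3 to 40 (block), 57 (DESeq2), 7 (no filter) and 0 (only the groups compared; 659 at an unadjusted p under 0.05) in β-catenin KO. For β-catenin KO against CTRL in high CHIR they went from 1757 to 240 with only the groups compared, 2881 with the block and 1117 with a log2 change over 1, and in low CHIR from 11 to 74 with the block, 189 with DESeq2 and 0 with only the groups compared (the range without 1 library was 0 to 53). Response differences of β-catenin KO from CTRL went from 112 to 400 (block), 328 (DESeq2) and 50 (only the groups compared). QCKO had 540 calls between CHIR levels at a minimum mean of 100. Leaving out 1 library gave 1053 (CTRL low CHIR replicate 1) to 2986 (CTRL high CHIR replicate 1) in CTRL, 281 to 496 in α-catenin KO, 368 to 399 in QCKO, 1 to 4 in β-catenin KO, 863 (β-catenin KO high CHIR replicate 1) to 3060 (CTRL high CHIR replicate 1) for β-catenin KO against CTRL in high CHIR, and 46 (CTRL low CHIR replicate 3) to 207 (β-catenin KO low CHIR replicate 1) for the response differences. The causes were not tested. Depth limits Six2 in high CHIR, where the fewest reads in a library were 23.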
